A study of Mus musculus with 2 samples.

Results

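The major histocompatibility complex (MHC) genes and the antigen-presentation machinery were read from total RNA-seq of mouse heart. The set was every annotated gene whose symbol starts with H2- (45 genes) and 14 genes chosen by name for peptide supply, chain pairing, folding or regulation, which makes 59 of the 55536 annotated genes. The choice used symbols and no measured value. Of the 59 genes, 48 lie on chromosome 17, 48 are annotated as protein coding and 11 as pseudogenes of some kind. Both hearts came from male mice of the B6CASTF1/J cross, 2 months old and supplied by The Jackson Laboratory. Such animals carry 1 B6 and 1 CAST copy of each autosomal gene. Each library was made from 300 ng of total RNA, reduced in ribosomal RNA, with ERCC spike-ins added. They form 1 group of 2 biological replicates with no treatment, no control and no second genotype, so there was no contrast to test and no p-value is given. Although they share a donor entry, the males are numbered apart in the labels, so they are taken as separate animals and called replicates 2 and 1. Replicate 2 had 44321132 gene counts and replicate 1 had 38963537, and the cardiomyocyte markers Myh6, Tnnt2, Actc1 and Ryr2 lay between 390 and 8105 TPM in both.

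MHC class I molecules pair a polymorphic heavy chain with the invariant light chain beta-2 microglobulin and show peptides from inside the cell to CD8 T cells. The peptides are cut by the proteasome, pumped into the endoplasmic reticulum by the TAP transporter, trimmed there and loaded with the help of tapasin, calreticulin, calnexin and the disulfide isomerase Pdia3. MHC class II molecules pair an alpha with a beta chain, are mostly made by macrophages, dendritic cells and B cells, and show peptides from endosomes to CD4 T cells. Interferon gamma raises both pathways, through Nlrc5 for class I and Ciita for class II.

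The promoters of the most abundant class I and class II genes carry short shared elements, and 6 are shown because their genes carry the levels described below. They are RefSeq sequences of build GRCm38.p6, from 250 bases before to 50 bases after the annotated start, written 5′ to 3′ on the gene's own strand. Capitals mark matches on either strand to the Y box (CTGATTGG), the core of the interferon-stimulated response element (GAAANNGAA) or a kappaB palindrome (GGGANTCCC), where N is any base. B2m lies at chr2:122147437-122147736 on the plus strand, H2-K1 at chr17:34000284-34000583 on the minus strand and H2-D1 at chr17:35262844-35263143 on the plus strand. H2-T23 lies at chr17:36032652-36032951 on the minus strand, H2-Aa at chr17:34287774-34288073 on the minus strand and H2-Eb1 at chr17:34305617-34305916 on the plus strand.
B2m: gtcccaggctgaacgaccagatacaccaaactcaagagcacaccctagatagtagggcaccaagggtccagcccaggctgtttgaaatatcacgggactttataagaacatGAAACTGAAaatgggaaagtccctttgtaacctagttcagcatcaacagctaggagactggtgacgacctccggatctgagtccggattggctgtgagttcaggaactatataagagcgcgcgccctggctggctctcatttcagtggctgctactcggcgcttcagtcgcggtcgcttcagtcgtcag
H2-K1: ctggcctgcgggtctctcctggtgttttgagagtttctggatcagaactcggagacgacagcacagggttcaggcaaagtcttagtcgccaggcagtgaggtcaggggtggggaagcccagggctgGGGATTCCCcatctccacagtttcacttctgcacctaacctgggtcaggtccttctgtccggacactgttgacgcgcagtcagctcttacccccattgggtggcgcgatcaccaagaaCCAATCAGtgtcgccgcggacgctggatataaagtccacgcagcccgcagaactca
H2-D1: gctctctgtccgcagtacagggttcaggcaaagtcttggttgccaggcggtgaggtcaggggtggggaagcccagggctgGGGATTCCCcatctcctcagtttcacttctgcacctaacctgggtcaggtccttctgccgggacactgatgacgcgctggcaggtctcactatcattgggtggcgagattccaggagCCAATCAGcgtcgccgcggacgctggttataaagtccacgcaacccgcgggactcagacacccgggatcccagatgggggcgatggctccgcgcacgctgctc
H2-T23: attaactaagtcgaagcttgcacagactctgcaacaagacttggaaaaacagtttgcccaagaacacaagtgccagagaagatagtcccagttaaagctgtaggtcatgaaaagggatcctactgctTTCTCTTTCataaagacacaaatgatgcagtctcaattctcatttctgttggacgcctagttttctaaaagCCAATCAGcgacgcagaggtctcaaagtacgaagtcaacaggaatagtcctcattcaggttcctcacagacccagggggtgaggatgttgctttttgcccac
H2-Aa: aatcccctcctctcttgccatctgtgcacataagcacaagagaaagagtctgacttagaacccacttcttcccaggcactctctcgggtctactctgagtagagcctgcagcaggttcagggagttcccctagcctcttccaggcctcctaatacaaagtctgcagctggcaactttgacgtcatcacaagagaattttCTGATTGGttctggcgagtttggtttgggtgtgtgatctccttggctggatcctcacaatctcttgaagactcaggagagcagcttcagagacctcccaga
H2-Eb1: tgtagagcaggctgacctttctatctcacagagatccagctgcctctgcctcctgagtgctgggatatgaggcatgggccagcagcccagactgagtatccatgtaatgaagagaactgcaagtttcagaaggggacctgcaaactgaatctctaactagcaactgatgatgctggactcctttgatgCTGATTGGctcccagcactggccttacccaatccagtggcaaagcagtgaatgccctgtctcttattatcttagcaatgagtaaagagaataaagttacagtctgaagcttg

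Promoter windows were on hand for 41 of the 59 genes. A Y box occurred in 20 of those 41 genes, against 4.70% of all 27025 genes with a window. In H2-D1, H2-T23, H2-Aa and H2-Eb1 the match began 53, 52, 51 and 62 bases before the annotated start. In H2-K1, which has a pair of annotated starts, it began 6 bases before the start used above. A Y box was also present upstream of genes that were listed at 0 in heart, such as H2-M1, H2-M9 and H2-M10.1. The kappaB palindrome was in H2-D1, H2-K1, H2-Q6 and H2-Q7, against 0.903% of all genes, and the H2-D1 and H2-K1 windows above are visibly alike around it. The interferon-response core was in B2m, Erap1, H2-T23 and H2-T22, which is 4 of 41 against 9.76% of all genes. Only exact matches were counted, so promoters without one, such as those of H2-K1 and H2-D1, may still hold a variant. These matches are letters in a fixed window and not measured binding, and class I genes arose by duplication, so they are not independent of each other.

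Antigen-presentation genes spanned the range from absent to well expressed in heart. Detection was set at 1 TPM (a transcript level per length) or more in both hearts, which 25 of the 59 genes were, or 42.4%, against 21.5% of all annotated genes. Among protein-coding genes the share was 23 of 48, or 47.9%, against 49.8% of all protein-coding genes, so these genes were detected about as often as coding genes in general. Their TPM summed to 799.92 in replicate 2 and 733.37 in replicate 1, and Calr, Canx and Pdia3 held 47.2% ± 3.50 of that (SD, n = 2). The plot of levels by heart orders the genes by role.

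**Figure D1:**
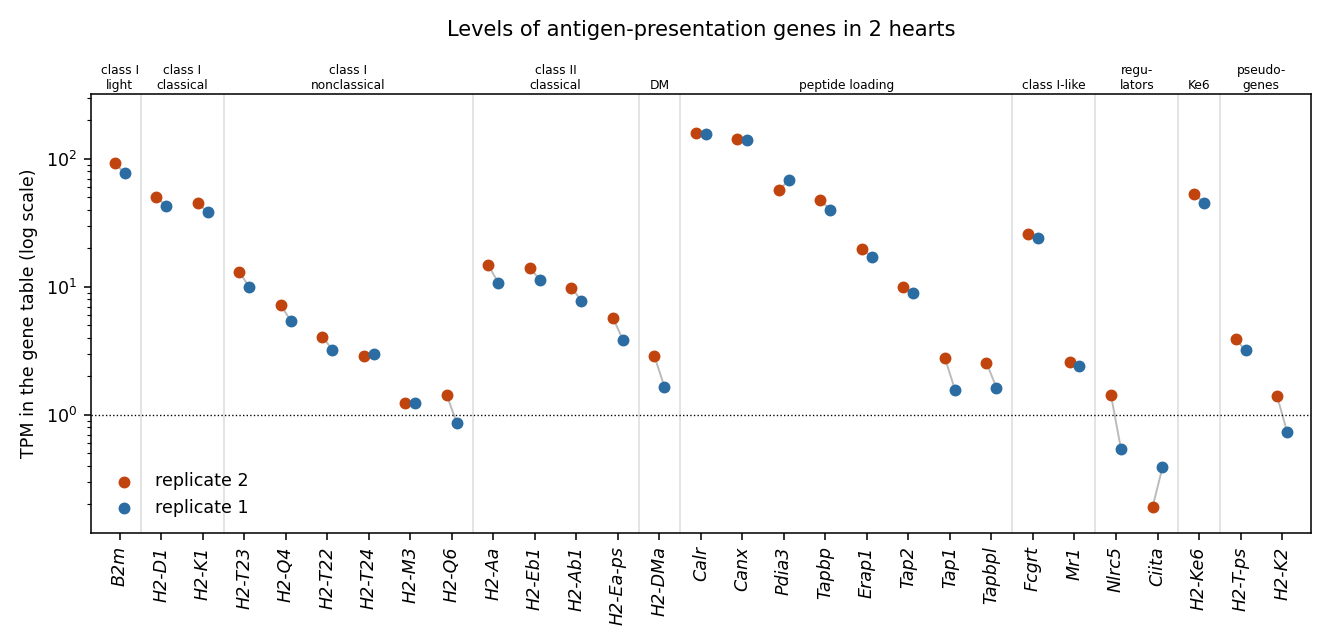
TPM in the gene table (log scale) for the 27 genes with a mean of 1 TPM or more and the regulators Nlrc5 and Ciita, grouped by role; each point is 1 heart, replicate 2 left of replicate 1, and the dotted line is 1 TPM. Calr and Canx sit highest, between 139.24 and 159.25 TPM, and Ciita lies below 1 TPM in both hearts.

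The class I pathway led. B2m, the light chain, had 92.08 TPM in replicate 2 and 77.34 TPM in replicate 1. H2-D1, a classical class I heavy chain, had 50.32 TPM in replicate 2 and 42.64 TPM in replicate 1. H2-K1, the other classical heavy chain, had 45.0 TPM in replicate 2 and 38.2 TPM in replicate 1. All 3 genes were higher in replicate 2, and the hearts ranked them in the same order. Within each heart their proportions hardly moved. H2-D1 stood at 1.12 ± 0.00141 times H2-K1, and B2m at 0.961 ± 0.00658 times the sum of both (SD, n = 2 hearts). In the second quantification, described further below, the same proportions were 1.12 ± 0.145 and 0.957 ± 0.0694, a wider spread around like means.

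All 24 protein-coding class I heavy chains together reached 127.33 TPM in replicate 2 and 106.5 TPM in replicate 1, and B2m stood at 0.725 ± 0.00215 times that sum. H2-K1 and H2-D1 held 75.4% ± 0.739 of it, so the 22 nonclassical genes shared the remaining 32.01 TPM in replicate 2 and 25.66 TPM in replicate 1. H2-T23, which encodes the Qa-1 molecule read by NKG2 receptors of NK cells, was the highest nonclassical gene, with 13.08 TPM in replicate 2 and 9.95 TPM in replicate 1. H2-Q4 averaged 6.31 ± 1.27 TPM, and H2-T22, whose product is bound by some gamma-delta T cell receptors, 3.66 ± 0.601 TPM. H2-T24 averaged 2.94 ± 0.0919 TPM. H2-M3, which presents peptides with a formylated first methionine, had 1.23 TPM in each heart, and H2-Q6 averaged 1.14 ± 0.396 TPM (SD, n = 2 each).

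Of the nonclassical heavy chains, 10 were listed at 0 in both hearts. They were H2-M1, H2-M9, H2-M11, H2-M10.1, H2-M10.2, H2-M10.3, H2-M10.4, H2-M10.5, H2-M10.6 and H2-T3. The H2-M10 genes are known from sensory neurons of the vomeronasal organ and H2-T3 from intestinal epithelium. The pseudogenes H2-Pa, H2-Pb, H2-Q3 and H2-M10.5-ps1 were also at 0, which makes 14 of 59, a smaller share than the 30897 of all 55536 annotated genes. A count of 0 allows up to 3 counts in a library, or 0.0677 CPM in replicate 2 and 0.077 CPM in replicate 1, in counts scaled to the library. The remaining nonclassical class I genes, H2-Q1, H2-Q2, H2-Q7, H2-Q10, H2-M2 and H2-M5, lay between 0.01 and 0.73 TPM on average. Among the pseudogenes other than H2-Ea-ps, which is described with the class II chains, H2-T-ps averaged 3.55 ± 0.502 TPM and H2-K2 1.07 ± 0.467 TPM (SD, n = 2 each), and the others averaged under 1 TPM.

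Along chromosome 17 the 48 genes lie from base 33915899 to 37483552 of mm10, and high and low genes were interspersed at the start and separated at the end. Tapbp, H2-K1 and H2-Ke6 lie together at the start of the interval, followed by the class II genes and the TAP transporter. H2-D1, the H2-Q genes and the H2-T genes follow, and the last stretch holds the H2-M genes, of which 9 of the 12 coding ones were at 0. The plot along the complex shows this order by distance.

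**Figure D2:**
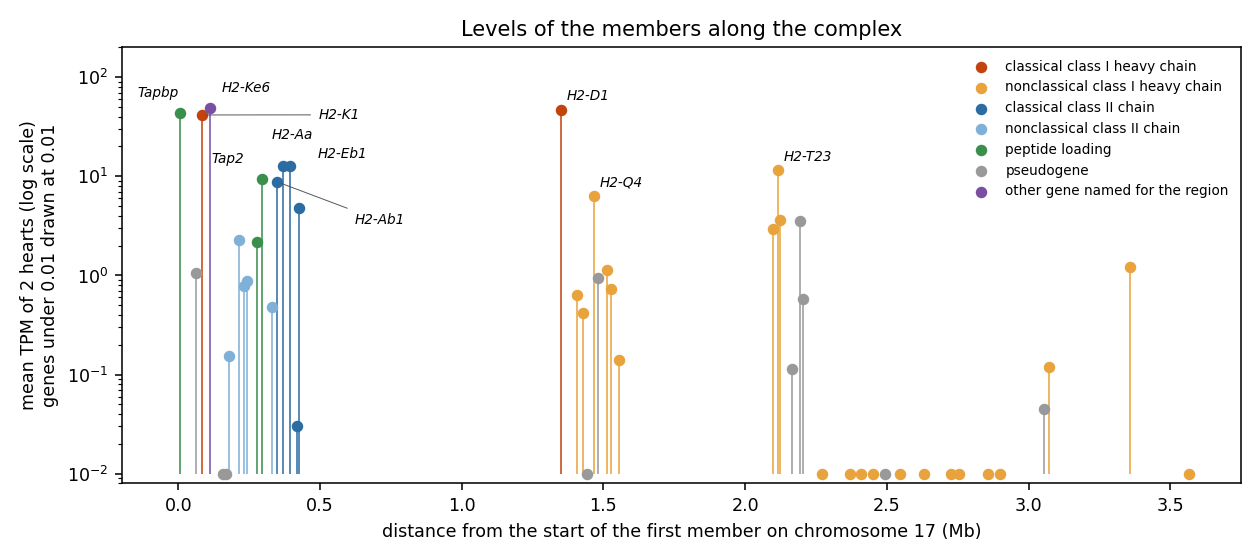
Mean TPM of 2 hearts (log scale, genes under 0.01 TPM drawn at 0.01) against distance in Mb from the start of the first of the 48 genes on chromosome 17, coloured by role. The classical class I genes H2-K1 and H2-D1 stand apart from the H2-M genes at the right, most of which were listed at 0.

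The class II chains were lower than the class I heavy chains, whose summed TPM stood at 2.70 ± 0.161 times theirs (SD, n = 2 hearts). The 10 class II genes reached 49.28 TPM in replicate 2 and 37.88 TPM in replicate 1. H2-Aa, an alpha chain, had 14.7 TPM in replicate 2 and 10.72 TPM in replicate 1. Its partner H2-Ab1 had 9.84 TPM in replicate 2 and 7.81 TPM in replicate 1. H2-Eb1, the beta chain of the E molecule, had 13.99 TPM in replicate 2 and 11.37 TPM in replicate 1. H2-Eb2 was nearly absent, with 0.01 TPM in replicate 2 and 0.05 TPM in replicate 1, which is 1 and 5 counts.

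H2-Ea-ps, the alpha chain gene of the E molecule, is annotated as a polymorphic pseudogene because the B6 strain carries a silencing deletion that many other strains lack. It had 5.7 TPM in replicate 2 and 3.87 TPM in replicate 1, on 182 and 111 counts, and none of its 31-base words was found in a transcript of another gene. H2-Eb1 stood at 2.70 ± 0.342 times its level. Which parental allele the reads came from was not tested.

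The accessory class II chains were low. H2-DMa, which with DM beta exchanges peptides on class II, averaged 2.27 ± 0.856 TPM, H2-DMb1 0.875 ± 0.0212 TPM and H2-DMb2 0.775 ± 0.0354 TPM (SD, n = 2 each). H2-Ob and H2-Oa, the chains of the DM inhibitor DO, averaged 0.48 ± 0.113 TPM and 0.155 ± 0.0636 TPM (SD, n = 2 each). The invariant chain Cd74, which fills the class II groove until DM acts, had 41.56 TPM in replicate 2 and 34.74 TPM in replicate 1, or 3.03 ± 0.292 times H2-Aa. Of the other 8 class II partners and endosomal proteases found, the highest were the cathepsins Ctsd, Ctsb and Ctsl and the tetraspanin Cd63, and these are expressed far beyond antigen-presenting cells.

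The 8 peptide-loading genes were all detected, and their levels ran over nearly the whole range. Calr, the chaperone calreticulin, had 159.25 TPM in replicate 2 and 156.36 TPM in replicate 1. Canx, calnexin, had 141.42 TPM in replicate 2 and 139.24 TPM in replicate 1. Pdia3, the isomerase that binds tapasin, had 56.76 TPM in replicate 2 and 68.38 TPM in replicate 1. These 3 genes fold glycoproteins of every kind, and they did not follow the class I chains between the hearts, with Pdia3 lower in replicate 2.

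Tapbp, tapasin, had 47.43 TPM in replicate 2 and 39.78 TPM in replicate 1, close to the classical heavy chains. Its relative Tapbpl, a peptide editor outside the loading complex, averaged 2.09 ± 0.643 TPM (SD, n = 2), and Tapbp stood at 21.5 ± 4.05 times that level. In the second quantification Tapbp averaged 32.4 ± 2.46 TPM, below H2-K1 with 43.0 and H2-D1 with 48.3 TPM there. Its ratio to Tapbpl was 13.8 ± 3.11 there. Erap1, which trims the ends of peptides, had 19.58 TPM in replicate 2 and 17.21 TPM in replicate 1. The TAP transporter was low, and its total gene levels were uneven between the subunits, which form a heterodimer. Tap2 averaged 9.44 ± 0.799 TPM and Tap1 2.17 ± 0.849 TPM (SD, n = 2 each), a ratio of 3.61 in replicate 2 and 5.65 in replicate 1. As given further below, a transcript annotated with a retained intron held the largest share of Tap2 TPM in both transcript tables. The main coding transcripts were closer in the first table, with 2.02 TPM for Tap2-201 and 1.555 TPM for Tap1-206. In the second they had 3.99 and 1.80 TPM.

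Proteasome subunits lay on the constitutive side. The catalytic subunits Psmb5, Psmb6 and Psmb7 stood at 10.97 ± 1.58, 18.9 ± 2.58 and 3.58 ± 0.0732 times their interferon-inducible counterparts Psmb8, Psmb9 and Psmb10 in TPM (SD, n = 2 hearts). The activator subunits Psme1 and Psme2 were the highest of that list, followed by Psmb10 and Psmb8.

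The class I-like genes outside the complex were led by Fcgrt, the heavy chain of the neonatal Fc receptor, which also pairs with B2m. Fcgrt had 25.87 TPM in replicate 2 and 24 TPM in replicate 1. Mr1, which shows vitamin B metabolites to MAIT cells, averaged 2.50 ± 0.12 TPM, and Cd1d1, which shows lipids to NKT cells, 0.865 ± 0.0212 TPM (SD, n = 2 each). H2-Ke6 is named for its place in the complex but encodes a hydroxysteroid dehydrogenase, and it had 52.9 TPM in replicate 2 and 45.45 TPM in replicate 1.

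The transcriptional regulators were near the limit of detection. Nlrc5 had 1.42 TPM in replicate 2 and 0.54 TPM in replicate 1, on 124 and 53 counts. Ciita had 0.19 TPM in replicate 2 and 0.39 TPM in replicate 1, on 34 and 51 counts. They therefore differed between the hearts in opposite directions. The 7 genes of the complex that Ciita works with were all detected, led by Nfyc, Creb1, Rfxap and Rfxank. None of the 7 had a counting interval of the ratio between the hearts that excluded 0. Over all genes with a mean count of 50 or more, 13.4% had intervals above 0 and 7.3% below. With 7 genes this count therefore says little.

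Levels between the hearts were compared as the log2 ratio of replicate 2 over replicate 1 after TMM scaling, for the 27 members with a mean count of 50 or more. With 1 library per heart this is a difference between 2 animals and has no replicate check. None of the 27 was 2-fold or more apart, against 0.57% of all 12453 genes at this depth. At 1.5-fold, 5 were higher in replicate 2, namely Nlrc5, Tap1, H2-Q6, H2-DMa and Tapbpl, or 18.5%, against 0.859% of all genes, and none was higher in replicate 1, against 1.19%. These counts depend on the filter. H2-DMa (87 counts in replicate 2, 49 in replicate 1) and H2-Q6 (73.2 and 41.1) reached it through replicate 2. Ciita, with a mean count of 42.5, was left out, and its ratio was -0.80 (-1.48 to -0.15), higher in replicate 1. Other genes left out went both ways, such as H2-Ob with -0.79 (-1.65 to 0.02) and H2-K2 with 0.54 (-0.11 to 1.18).

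Most of these genes were higher in replicate 2. Of the 27 genes, 23 had a ratio above 0, against 56.95% of all genes, and the median was 0.22, against 0.02 over all genes. Ratios were above 0 in 6 of 8 class I heavy chains, 5 of 5 class II chains and 6 of 8 peptide-loading genes. The exceptions were H2-T24, H2-M3, Calr and Pdia3. The exact 95% counting interval, which covers counting error and nothing else, lay above 0 for 17 of the 27, or 63%, against 13.4% of all genes, and below 0 for Pdia3 alone, against 7.3% of all genes. Scaled to the spike-ins, which moved the median of all genes to 0.18, the median of the 27 was 0.38 and the intervals lay above 0 for 24 of them, against 53.5% of all genes, and below 0 for none, against 1.81%. Genes of the complex are linked and share regulators, so these are not independent observations.

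**Figure D3:**
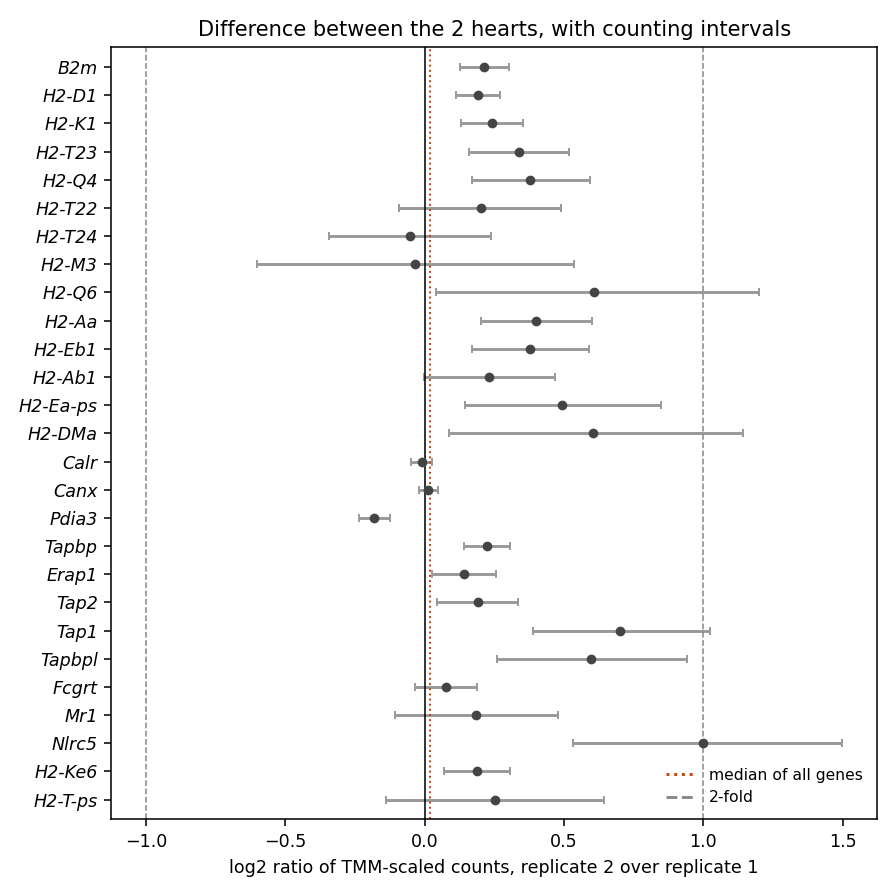
Log2 ratio of TMM-scaled counts, replicate 2 over replicate 1, for the 27 genes with a mean count of 50 or more; bars are exact 95% counting intervals, the dotted line is the median of all genes (0.02) and the dashed lines are 2-fold. Most genes lie right of 0, Pdia3 lies left of it, and Nlrc5 touches the 2-fold line.

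Nlrc5 had the largest ratio of the 27, 1.00 with an interval from 0.53 to 1.499. Tap1 followed with 0.70 and an interval from 0.39 to 1.03. Both had more counts in replicate 2, and both are low genes. The ratio of Nlrc5 lay just under 2-fold, and under DESeq2, total-count or spike-in scaling it passed that mark. The abundant genes moved less and with tighter intervals. B2m had 0.21 (0.13 to 0.30), H2-K1 0.24 (0.13 to 0.35) and H2-D1 0.19 (0.11 to 0.27). H2-Aa had 0.40 (0.20 to 0.60), H2-Eb1 0.38 (0.17 to 0.59) and H2-Ea-ps 0.49 (0.14 to 0.85), while the interval of H2-Ab1 reached 0. In the folding genes Calr had -0.01 (-0.05 to 0.03), Canx 0.01 (-0.02 to 0.05) and Pdia3 -0.18 (-0.24 to -0.12).

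Related lists were read the same way, against the shares over all genes given above, 13.4% of intervals above 0, 7.3% below and 56.95% of ratios above 0. Of 10 chaperones and glycan enzymes of the endoplasmic reticulum, 4 had intervals below 0, namely Hspa5, Hsp90b1, Pdia4 and Pdia6, and Prkcsh lay above 0. The highest of this list were Hspa5, Hsp90b1, P4hb and Pdia6. Of 5 immunoproteasome genes 4 had ratios above 0 and the interval of Psme2 alone lay above 0. Among 8 genes of interferon gamma signalling with a mean count of 50 or more, Irf2 and Irf9 had intervals above 0 and none lay below, with a median ratio of 0.01. Ifngr2, Jak1, Ifngr1 and Irf2 were the highest of that list, and Ifng itself was listed at 0 in both hearts. Of the costimulatory and checkpoint ligands Icosl and Cd274 were detected, Cd40 and Cd86 came next under 1 TPM, and Cd274, the ligand of PD-1, had 2.06 TPM in replicate 2 and 1.27 TPM in replicate 1, with an interval above 0. The genes listed as receptors and ligands related to class I were all under 1 TPM in at least 1 heart. Lilrb4a, Pirb, Ulbp1 and Klra8 were the highest of them, and Raet1e was at 0.

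Markers of the cell types that make class II, and of other cell types, were summed beside this difference. The 10 macrophage markers summed to 137.36 TPM in replicate 2 and 135.58 TPM in replicate 1, led by Lyz2, C1qb, C1qa and C1qc. Lyz2 held 57.03 TPM of that sum in replicate 2 and 61.69 TPM in replicate 1. Of 9 with enough counts, 6 had ratios above 0, against 56.95% of all genes, with a median of 0.08 against 0.02. The interval of C1qb lay above 0, as for 13.4% of all genes. Those of Lyz2 and Mertk lay below, as for 7.3% of all genes. The 8 dendritic cell markers summed to 5.69 TPM in replicate 2 and 6.01 TPM in replicate 1, of which Zbtb46 alone was detected. Zbtb46 held 5.07 TPM of that sum in replicate 2 and 5.22 TPM in replicate 1, so the sum says little of the other markers. Ccr7, Batf3 and Itgax came next, and Xcr1 and Clec9a had at most 3 counts in a heart. The 4 B cell markers Cd79b, Cd79a, Pax5 and Ms4a1 summed to 1.55 TPM in replicate 2 and 3.76 TPM in replicate 1. The intervals of Cd79b (-2.13 to -0.71), Cd79a (-2.11 to -0.51) and Ms4a1 (-2.23 to -0.55) lay below 0, and that of Pax5 spanned 0. Mean counts were 42.5 in Cd79b, 32.5 in Cd79a and 30.5 in Ms4a1, under the 50 that the shares over all genes required. The 7 T and NK cell markers summed to 0.53 TPM in replicate 2 and 1.18 TPM in replicate 1, and Cd3d, Cd3e, Cd4 and Ncr1 were the highest. The 5 endothelial markers Pecam1, Cdh5, Kdr, Tie1 and Tek summed to 159.95 TPM in replicate 2 and 155.94 TPM in replicate 1. Whether the makeup of the samples has a part in the class I and class II difference was not tested. In bulk tissue, more cells of a type and more RNA per cell cannot be told apart.

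Some of these levels rest on sequence that several genes share. Each gene's transcripts were cut into 31-base words, and the share of words also present in another gene was counted. The genes with a mean of 1 TPM or more and the largest shares were H2-Ke6 with 76.1%, H2-T22 with 51.0%, H2-Q6 with 50.3% and H2-T-ps with 48.4%. For H2-Ke6 the partner is Gm20427, whose annotated span overlaps the gene, and for H2-T22 it is H2-T10. H2-D1 shared 26.7%, with H2-K1 as its largest partner, and H2-K1 shared 22.8%, with H2-D1 as its largest, while B2m and Canx shared none.

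The posterior standard deviation of the count, deposited by the authors, measures how unsure the assignment of reads was. It was 0.259% of the count in H2-D1, 0.132% in H2-K1 and 0.642% in H2-Ke6, but 4.87% in H2-T-ps, 6.33% in H2-Q6 and 16.2% in H2-Q1. H2-Q7 had 7.81% and H2-Q10 11.2%, but H2-Q2 had 0.523% and H2-Q4 0.580%. In read assignment the levels of H2-Q1, H2-Q6, H2-Q7 and H2-Q10 are therefore less certain than those of the classical genes. MHC genes are known as highly polymorphic, and reads of the CAST alleles may map less well to the B6 reference. How many were lost was not tested. The labels and headers say nothing of strand in counting, so reads from antisense or overlapping neighbours cannot be told apart.

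The deposited transcript tables came from a pair of quantifiers, of which the gene levels above used the first. Set beside the second, none of the 27 genes with a mean of 1 TPM was 2-fold or more apart, against 6.44% of all genes at this level. The nearest to that mark were H2-Ab1, with 8.83 ± 1.44 TPM in the gene table and 13.8 ± 3.29 TPM in the second table, and Canx, with 140 ± 1.54 TPM in the gene table and 211 ± 0.613 TPM in the second (SD, n = 2 each). Below 1 TPM there were wider gaps. H2-Q1 had 0.635 TPM in the gene table and 0.135 TPM in the second, and H2-Q10 had 0.14 TPM in the gene table and 0.645 TPM in the second. H2-DMb1 had 0.875 TPM in the gene table and 2.53 TPM in the second, and H2-Q7 had 0.73 TPM in the gene table and 1.98 TPM in the second. Nlrc5 had 0.98 TPM in the gene table and 0.461 TPM in the second. Among the genes listed at 0 in the gene table, H2-T3 averaged 0.0274 TPM, H2-M10.1 0.0264 TPM and H2-Q3 0.0969 TPM in the second. The others were at 0 there too.

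**Figure D4:**
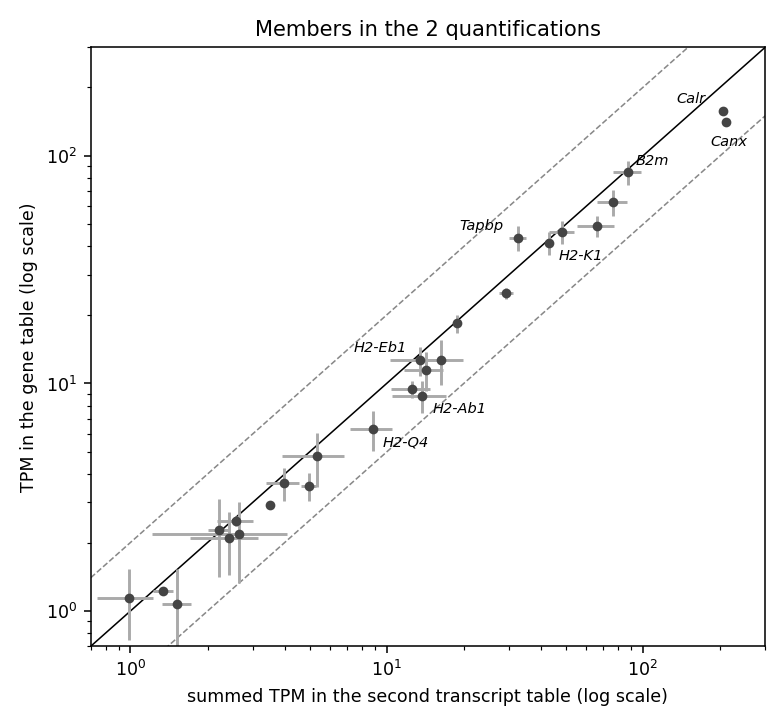
Mean TPM in the gene table against summed mean TPM in the second transcript table (both log scale) for the 27 genes with a mean of 1 TPM or more; bars are the SD of 2 hearts, the solid line is equality and the dashed lines are 2-fold. All points lie within the dashed lines, with Tapbp above equality and H2-Ab1 and Canx below it.

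The split into transcripts was compared in the same way. The most abundant transcript differed between the quantifiers in 5 of the 22 genes with several transcripts and 1 TPM in both tables, or 22.7%, against 24% of all such genes. The 5 were Tapbp, H2-K1, Erap1, H2-T22 and H2-K2. In the 13 genes whose leading transcript was at least 1.5 times the next in both tables, none differed. The share over all genes at this margin was not computed. Choosing genes with a clear leader in both tables makes agreement more likely, so no conclusion is drawn from it.

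In H2-K1 a short transcript made the difference. The first table put 40.6% of its TPM on H2-K1-215, a 457-base fragment annotated with a retained intron, and 31.5% on the coding transcript H2-K1-205. The fragment held 14.9% of the gene's counts, since TPM divides by length. The second table gave H2-K1-215 no signal and put 41.2% on H2-K1-205. In Tapbp the first table put 48.4% on Tapbp-206 and 37.9% on the 367-base Tapbp-208, which held 6.11% of counts, whereas the second put 70.8% on Tapbp-201. In Erap1 the 354-base Erap1-203 held 35.4% of TPM and 4.40% of counts in the first table, and the full-length Erap1-201 held 89.7% of counts there and 93.3% in the second.

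In other genes both tables agreed on the leading transcript but placed different shares on transcripts without a coding annotation. H2-Eb1 had 65.3% of its TPM in the first table and 66.0% in the second on H2-Eb1-205, which is annotated as a target of nonsense-mediated decay. The coding transcript H2-Eb1-203 held 4.53% in the first and 20.5% in the second. Tap2 had 72.5% ± 0.922 of its TPM on its single retained-intron transcript, Tap2-202, in the first table and 44.9% ± 1.22 in the second (SD, n = 2 each). Coding Tap2-201 held 21.4% in the first and 31.7% in the second. Across 3253 protein-coding genes at 10 TPM with such a transcript, the median retained-intron share was 3.61% in the first and 3.96% in the second, far below Tap2 in both.

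The folding genes differed in the opposite sense. Calr-204, with a retained intron, held 1.62% of Calr TPM in the first table and 24.6% in the second. Canx-202, a processed transcript of 708 bases, held 16.8% of Canx TPM in the first and 41.1% in the second. Pdia3-203, a decay target of 722 bases, had 3.96 TPM in replicate 2 and 11.87 TPM in replicate 1, so it carried most of the TPM difference of Pdia3 between the hearts, while Pdia3-201 had 52.66 TPM in replicate 2 and 56.43 TPM in replicate 1. H2-D1 was steadier, with 81.9% on the coding H2-D1-202 in the first table and 88.4% in the second, and H2-Aa had 98.8% and 96.0% on H2-Aa-201. H2-T23 had 95.4% and 96.1% on H2-T23-201. B2m has a single annotated transcript.

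**Figure D5:**
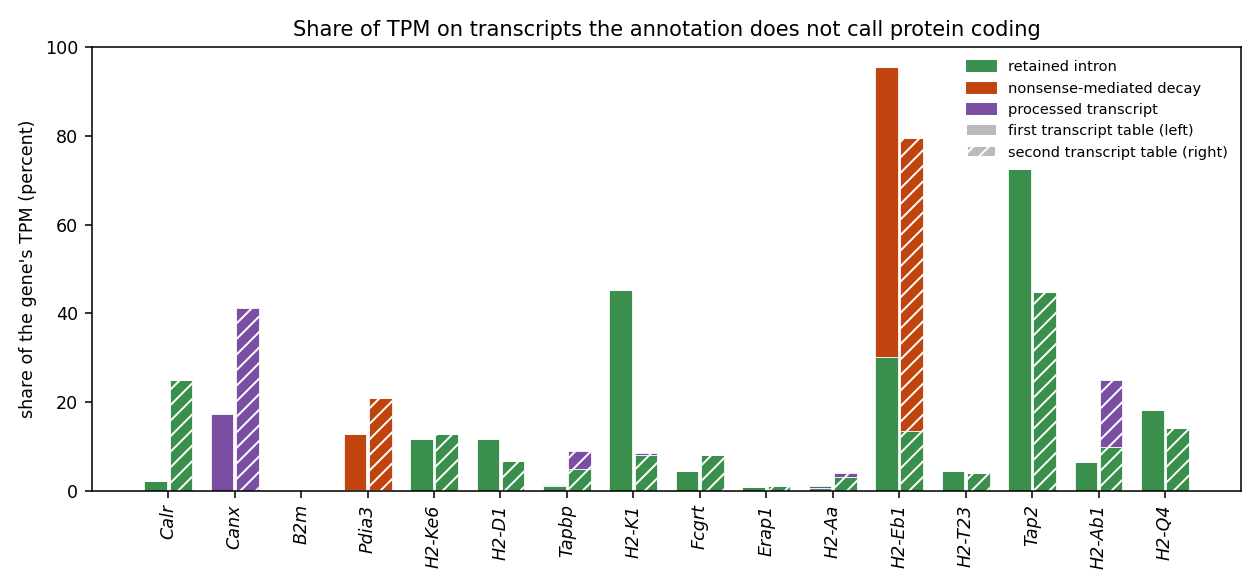
Share of each gene's mean TPM (percent) on transcripts annotated as retained intron, nonsense-mediated decay or processed transcript, for protein-coding genes with a mean of 5 TPM or more; plain bars are the first transcript table and hatched bars the second. H2-Eb1 and Tap2 have tall bars in both tables, H2-K1 only in the first, and Calr and Canx mainly in the second.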

How the data were processed

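Total RNA of 2 hearts was sequenced, 1 library each, and the replicate numbers come from the labels. Per the deposited descriptions, reads were quantified on mm10 with GENCODE M21. No label or header names the tools, and each is not given in the sources used here. Per the file headers, the authors deposited expected counts, TPM and FPKM per gene and transcript, and a second transcript table of estimated counts and TPM made directly from reads of 1 fastq file. The authors also deposited posterior mean TPM, posterior mean counts and the posterior standard deviation of the count, a score in counts. The first transcript table subtracted a median of 99 bases from transcript length to get effective length, and the second 325.04 bases in replicate 2 and 326.04 bases in replicate 1, so the tables weigh short transcripts differently.

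The 26248 entries with numeric identifiers (2 expected counts in replicate 2 and 3 in replicate 1) and the 96 spike-ins (223665 counts in replicate 2 and 214409 in replicate 1) were left out of the gene totals. Transcripts of the second table were summed per gene. Scaling used expected counts rounded to integers, by TMM (edgeR 4.0.16 in R 4.3.3) and DESeq2 1.42.0 size factors. Ratios used a prior count of 0.5 and a mean count of at least 50, with exact Clopper-Pearson intervals at 95%. Such intervals, like the floor of 3 counts, hold for counting error only. No edgeR or DESeq2 test was run, since there is 1 group. Quantifiers were compared with a pseudocount of 0.1 TPM. On simulated counts of 15736 genes, 79 of 79 genes changed 4-fold, 4 of 85 changed 1.5-fold and 2 of 12288 unchanged genes passed 2-fold. Other steps ran in Python 3.11.15 with pandas 2.3.3 and scipy 1.17.1.

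Genes named were those at 1 TPM or more, the classical chains and regulators, those at 0, the 4 highest of each list and the 4 with the most shared words; others were chosen after their values were seen. The members and lists were chosen with earlier results of these data known. A few list genes are not reported here and were left out of their lists. Of the rest, March1 was found and Marchf1 was not.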

Additional observations from a re-analysis of the deposited data

How the results depend on the processing

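No paired analysis was possible because there is 1 group and no contrast. The number of genes at 1 TPM stayed between 21 and 33 under every threshold and quantifier tried. The summed class I heavy chains were 92.4 as FPKM and 299 with TPM rescaled to nuclear protein-coding genes. The summed class II chains were 55.2 TPM in the second table, 34.4 as FPKM and 112 when rescaled. B2m stood at 0.684 times the class I sum in the second table, 0.703 with posterior mean TPM and 0.745 without genes under 1 TPM. The count of genes 2-fold apart between the hearts was 1 with DESeq2 size factors, total counts, spike-ins or the second table, each time Nlrc5. It was 3 with no minimum count (H2-Eb2, H2-M5 and H2-M2, each with 6 counts or fewer) and 5 at 1.5-fold. The count of genes apart between the quantifiers was 2 at 1.5-fold, and 0 to 2 with a heart left out. The count whose leading transcript differed was 3 at 10 TPM, 0 with a 1.5-fold margin, and 3 to 4 with a heart left out. Of the 27 named levels, 14 moved by more than 1 SD in the second table. Of the 27 named ratios, 11 left their counting interval under spike-in scaling, which shifts all genes. Interval counts under other scalings, added after the data were seen, ran from 17 to 24. With 1 library per heart, low genes such as Ciita and the H2-Q genes are limited by their counts.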

Other observations

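The interval on chromosome 17 that holds 48 of the genes, 3.57 Mb long, also holds 286 other annotated genes, of which 77 were detected at 1 TPM in both hearts. In all, genes of the interval summed to 1541.43 TPM in replicate 2 and 1407.71 TPM in replicate 1, and the 48 genes described above held 297.35 TPM of it in replicate 2 and 245.02 TPM in replicate 1. The highest neighbours were housekeeping genes. Rps18, a ribosomal protein of the small subunit, had 161.04 TPM in replicate 2 and 140.99 TPM in replicate 1. Bag6, a chaperone for membrane proteins, had 96.49 TPM in replicate 2 and 91.57 TPM in replicate 1. Csnk2b, the regulatory subunit of casein kinase 2, had 65.33 TPM in replicate 2 and 59.69 TPM in replicate 1, and Flot1, flotillin, had 56.59 TPM in replicate 2 and 57.27 TPM in replicate 1. The log2 ratios of replicate 2 over replicate 1, with counting intervals, were 0.16 in Rps18 (0.07 to 0.25) and 0.16 in Csnk2b (0.06 to 0.27). Bag6 had 0.03 (-0.02 to 0.08) and Flot1 0.02 (-0.05 to 0.10), against 0.24 in H2-K1 and 0.19 in H2-D1. The intervals of Rps18 and Csnk2b lay above 0, against 13.4% of all genes. Among the next highest neighbours those of Prrc2a, 2310061I04Rik, Tubb5 and Abcf1 also lay above 0. Those of Ppp1r11, Ddx39b, Slc39a7, Pfdn6, Agpat1, Brd2 and Abhd16a spanned 0. The share over all neighbours was not computed. Higher levels in replicate 2 were thus not confined to the antigen-presentation genes. The neighbours were picked as the highest in TPM after their values were seen.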
